A study of Cucumis sativus with 4 samples.

Results

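The genes described here are the 100 with the highest mean level over 4 RNA sequencing libraries of young cucumber (Cucumis sativus) fruit, out of 20000 genes listed. Line 408, which bears long fruit, and its near-isogenic line 409, which bears short fruit, were grown in a greenhouse and gave 2 libraries each. A library came from 3 to 5 fruits of about 2 to 4 cm, taken from different plants and pooled, and both lines were sampled on one occasion. No treatment was applied, and the labels do not say which chromosome segments still differ between the lines. Levels are RPM, a gene's reads for every 1000000 reads counted on listed genes. RPM is not divided by gene length, and a long transcript collects more reads than a short one with as many copies. Ranks and shares below are therefore of reads, not of molecules.

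The genes were chosen by their mean level over all 4 libraries, so the levels themselves are a description without a test. That mean weighs both lines equally and does not fix the direction of a difference between them, but a gene very high in 1 line or 1 library can enter through it alone. The means ran from 581 to 6252 RPM, with a median of 835 RPM. At the edge, Csa4G649590 and Csa2G370380 were the last included, at means of 585 and 581 RPM, and Csa3G207890 and Csa1G569290 were the first outside, at 575.5 and 573 RPM. In 53 of the 100 genes the mean of each line separately reached the level of the last gene included. Another 23 reached it in line 408 only and 24 in line 409 only.

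Transcripts of a plant organ differ widely in abundance, and those at the top supply much of its basic machinery. In young organs they commonly include genes for ribosomal proteins and translation factors, tubulin and actin of the cytoskeleton, histones, cell wall proteins, lipid transfer proteins, water channels and chlorophyll-binding proteins. A young cucumber fruit first grows by cell division and then mainly by cell expansion. The deposited table identifies genes by ID alone, and 0 of its IDs matched the 23999 genes of the reference table, so no function is given to any ID below and the tissue label could not be checked against named markers. The digit after Csa is read as the chromosome number, by the convention of these IDs.

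The estimated depth was 12256000 to 13808000 reads per library, and 1 read was worth 0.0724 to 0.0816 RPM, so counting error is small at the levels of these genes. All 100 were above 0 in every library, and all entered the comparison of the lines. The lowest single value was 101.2 RPM, for Csa6G501990 in 408 replicate 2.

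In line 408 the abundant genes took 10.7% of the reads of replicate 1 and 10.3% of those of replicate 2. In line 409 they took 11.2% and 12.7%. The line means were 10.5% ± 0.285 for 408 and 11.99% ± 1.05 for 409 (SD, n = 2 per line), a difference of 1.53 percentage points. It was 0.783 points without 409 replicate 2, and -0.69 points when the 100 genes were chosen by the mean of line 408 alone, a choice that favours genes high in 408. Both 409 libraries lay above both 408 libraries, and the 409 replicates were 1.49 points apart, nearly as far as the lines. An exact two-sided permutation test gave p = 0.333, the smallest that 2 libraries against 2 allow. Most of the net difference lay in the first 10 genes by the mean over all 4 libraries. That order can favour genes high in 1 library, so this is a description. The first 10 genes took 2.35% to 2.89% of the reads in the 408 libraries, 3.30% in 409 replicate 1 and 4.55% in 409 replicate 2, whereas the other 90 took 7.77% to 8.19% in all 4 libraries. Each of these sums holds genes higher in 408 as well as genes higher in 409.

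**Figure D1:**
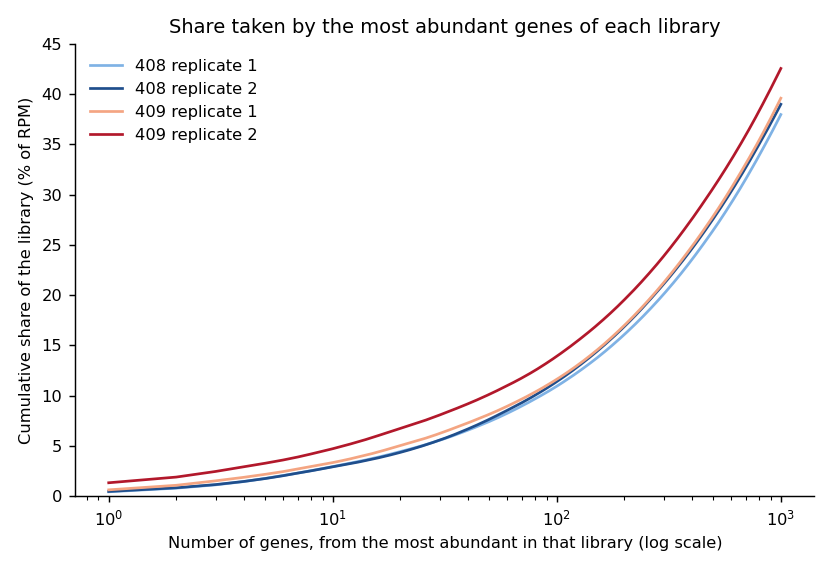
Cumulative share of each library (percent of RPM, vertical axis) against the number of its own most abundant genes (log scale, horizontal axis), with 1 line per library. 409 replicate 2 runs above the others throughout, at 13.9% for its first 100 genes against 10.9% to 11.6% in the other 3 libraries.

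Counted by each library's own order, 49 genes sufficed for 10% of the reads in 409 replicate 2, against 75 to 85 genes in the other 3 libraries. The excess of this library was spread over several ranges of rank. Its leading gene took 1.33% of the reads, against 0.429% to 0.624% elsewhere. Ranks 2 to 10 took 3.39%, against 2.44% to 2.71%, and ranks 11 to 100 took 9.21%, against 8.003% to 8.49%. Genes beyond rank 1000 took 57.4%, against 60.4% to 62.0%. Of the 100 most abundant genes of 409 replicate 2, 61 were among the genes described here and took 10.9% of its reads, and the other 39 took 3.07%. The highest of those 39 was Csa4G608160 at 1087 RPM.

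Csa6G518000 was the most abundant gene by mean and led 3 of the 4 libraries. It measured 4292 and 1194 RPM in the 408 libraries, replicates 1 and 2 in that order here and below, and 6242 and 13281 RPM in the 409 libraries. Its share of 409 replicate 2 was 1.33% (95% Wilson interval from the estimated depth 1.32% to 1.33%, for counting error only). The lines did not overlap, but the replicates of each line differed more than 2-fold. The log2 fold change, 408 minus 409 on the log2(RPM + 1) scale used throughout, was -2.01 with a standard error of 0.79 and did not pass the test (limma, adjusted p = 0.108). Without 408 replicate 2 it was -1.08.

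Csa6G448110 led the remaining library, 408 replicate 2, with 4653 RPM. It measured 3246 RPM in 408 replicate 1, 1962 RPM in 409 replicate 1 and 2209 RPM in 409 replicate 2. Its rank fell from 1 by the mean of line 408 to 11 by the mean of line 409, and its log2 fold change of 0.90 ± 0.38 (SE) did not pass the test (limma, adjusted p = 0.123).

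The next 3 genes by mean had narrower ranges. Csa5G198770 measured 3649 and 3088 RPM in the 408 libraries, and 4447 and 5606 RPM in the 409 libraries. Csa6G139750 measured 3247 and 2925 RPM in line 408, and 4528 and 4620 RPM in line 409. Csa3G154390 had 3188 and 2788 RPM in line 408, and 3467 and 3588 RPM in line 409. All 3 held ranks 2 to 6 in every library, and they were the only ones of the first 10 genes to stay within the top 10 of all 4 libraries. In each the 409 libraries lay above the 408 libraries, at log2 fold changes of -0.57, -0.57 and -0.24 that did not pass the test (limma, adjusted p = 0.321, 0.288 and 0.623). That of Csa3G154390 was -0.15 without 408 replicate 2.

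Among the other leading genes, Csa2G024440 measured 1849 and 697 RPM in line 408, and 2238 and 5655 RPM in line 409. Its rank was 83 in 408 replicate 2 and 2 in 409 replicate 2. Csa6G358710 measured 2441 and 1557 RPM against 2685 and 3044 RPM, Csa5G613470 1960 and 1364 RPM against 3033 and 3174 RPM, and Csa1G599420 2111 and 1632 RPM against 2687 and 2978 RPM, line 408 first. For all 4 genes both 409 libraries were above both 408 libraries. Csa2G139820 went the other way, with 2894 and 3638 RPM in line 408 and 1668 and 1315 RPM in line 409. None of the 10 leading genes passed the test in this fit, at adjusted p values of 0.06 for Csa2G139820 to 0.623 for Csa3G154390 (limma). In a fit without the mean-variance trend, Csa2G139820, Csa5G613470 and Csa6G448110 passed (limma, adjusted p = 0.0363, 0.0455 and 0.0488). Csa2G139820 also passed with a filter of 5 RPM (limma, adjusted p = 0.0432).

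**Figure D2:**
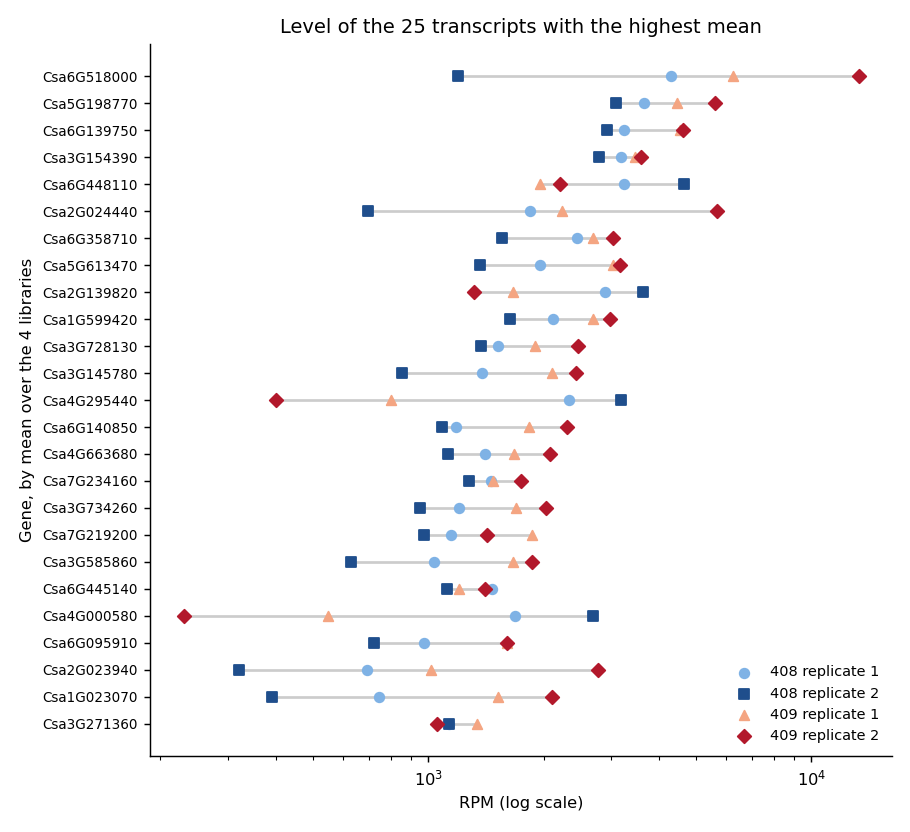
Level in RPM (log scale, horizontal axis) of the 25 genes with the highest mean (vertical axis), with 1 point per library and a grey line from the lowest to the highest. Csa6G518000 has the widest range of the first 10 genes, from 1194 RPM in 408 replicate 2 (dark squares) to 13281 RPM in 409 replicate 2 (dark diamonds).

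The extra weight of 409 replicate 2 was then divided among the abundant genes, as each gene's share in that library minus its mean share in the other 3. The parts sum to 2.01 percentage points. In 50 genes the part was positive, summing to 4.06 points, and in 50 it was negative, summing to -2.05 points. Csa6G518000 alone contributed 0.937 points, or 46.6% of the net excess. Csa2G024440 followed with 0.406 points and Csa2G023940 with 0.209 points. Csa5G198770 added 0.188 points, Csa1G023070 0.122 points and Csa3G874380 0.110 points. Together these 6 genes gave 1.97 points, equal to 98.0% of the net excess and to 48.6% of the positive parts.

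Without the 6 genes the rest of the abundant genes took 9.48% and 9.66% of the reads in the 408 libraries, and 9.58% and 9.61% in the 409 libraries. The 6 genes themselves took 1.18% and 0.596% in line 408, and 1.67% and 3.12% in line 409. They were picked for this excess, so the even share of the other 94 is a description of these libraries and not a test. The same 6 gave the largest parts when 409 replicate 2 was set against 409 replicate 1 alone, at 1.46 of 1.49 points. Both comparisons start from the same 409 replicate 2 shares and include 409 replicate 1, so the second is not separate support. At the other end, Csa4G295440 took 0.171 points away, Csa2G139820 0.142 and Csa4G000580 0.141.

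**Figure D3:**
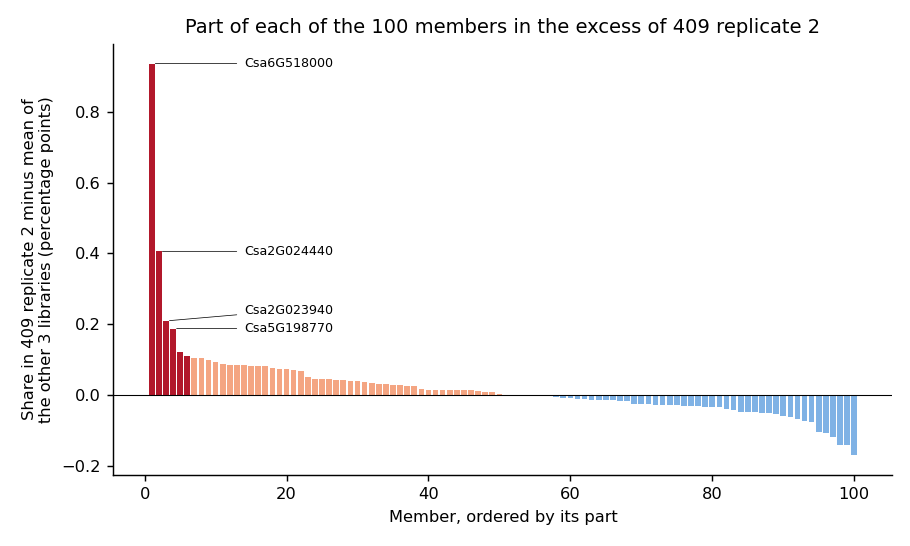
Share in 409 replicate 2 minus the mean share in the other 3 libraries (percentage points, vertical axis) for each of the 100 genes, ordered by size, with the 6 largest in dark red, other positive parts in orange and negative parts in blue. The first bar, Csa6G518000, reaches 0.937 points, more than 2 times the second.

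Only Csa6G518000, Csa2G024440 and Csa2G023940 had 1 library at 2 or more times the level of the next, and in all 3 this was 409 replicate 2. Conversely, 13 genes, these 3 among them, had 1 library so low that the next lowest was at least 2 times its level. That library was 408 replicate 2 in 10 genes and 409 replicate 2 in Csa3G026150, Csa4G167980 and Csa4G000580. No share over all genes is given for these counts. The choice by mean can let in genes through 1 high library, so they are a description. Csa4G167980 measured 1233 and 1380 RPM in line 408, and 1167 and 483 RPM in line 409.

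Csa2G023940 measured 695 and 321 RPM in line 408, and 1016 and 2769.6 RPM in line 409. Its level in 409 replicate 2 was 2.73 times that in 409 replicate 1, and the factor was 2.53 for Csa2G024440 and 2.13 for Csa6G518000. Neither Csa2G023940 nor Csa2G024440 passed the test between the lines, at log2 fold changes of -1.83 ± 0.61 and -1.65 ± 0.67 (SE; limma, adjusted p = 0.0762 and 0.117). Without 409 replicate 2 the log2 fold change was -1.10 for Csa2G023940, and without 408 replicate 2 it was -0.94 for Csa2G024440.

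Csa2G023940 and Csa2G024440 stand on successive lines of the ID-ordered table. The level of the first was 0.376 and 0.460 times that of the second in the 408 libraries, and 0.454 and 0.490 times in the 409 libraries. Their own levels spanned 8.63-fold and 8.11-fold between the replicate 2 libraries. Whether they are copies of one sequence that share reads was not tested.

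Of the other abundant genes, 2 pairs stood within 3 lines of each other. Csa2G009440 ran from 114 RPM in 408 replicate 2 to 1257 RPM in 409 replicate 2, while Csa2G009470, 3 lines further, stayed between 760 and 852 RPM. Csa5G198770 had its higher values in line 409, and Csa5G199310, also 3 lines further, measured 872 and 1197 RPM in line 408 against 533 and 439 RPM in line 409. One gene just inside the list has a neighbour just outside it, a pair singled out after its values were seen. Csa1G569270 measured 689 and 1082 RPM in line 408, and 429 and 259.5 RPM in line 409. Csa1G569290 measured 680 and 1111 RPM in line 408, and 319 and 181 RPM in line 409. All 7 chromosome numbers were represented, with 11 to 18 abundant genes each. Chromosome 2 had 18 genes and chromosome 4 had 17, while 12.2% and 11.96% of the listed genes carry those numbers. Chromosome 3 had 15 genes, with 20.9% of the listed genes. These counts were not tested.

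The lines were compared over 17391 genes that reached 1 RPM in 2 or more libraries, and the rows of the abundant genes were read from that fit. Of the 100, 28 passed the test (limma, adjusted p under 0.05), against 27.2% of all genes tested, so the share was near the background in this fit. They were 17 genes higher in 408 (17.1% of all genes tested) and 11 higher in 409 (10.1%). All 11 had a line 408 mean below the level of the last gene included, 581 RPM. By their line 409 mean so did the 17, except Csa4G295440. Nearly all that passed thus entered the list through the line where they were high, so the count is tied to that choice. The balance of directions depended on the scaling. Of all genes that passed, 62.9% were higher in 408 at the deposited values. Median-of-ratios rescaling gave 56.4%, with 17 abundant genes higher in 408 and 15 higher in 409. Quantile normalization gave 49.7%, with 19 and 11. Of the 100, 25 passed with a difference of at least 2-fold, against 16.3% of all genes tested and 23.2% of the next 400 genes by mean. Of the genes that passed, those 25 of 28 compare with 65.5% in the next 400 and 59.7% over the whole table. The median standard error was 0.27 over the abundant genes, 0.21 over the next 400 and 0.20 over all genes tested. Whether these errors account for the larger share at 2-fold or more was not tested. The median log2 fold change was -0.18 over the abundant genes, -0.20 over the next 400 and 0.06 over all genes tested. The median size of the difference was 0.78, 0.68 and 0.47 in that order. Choosing by the mean lets in genes high in 1 line only, so these sizes are a description. Of the next 400 genes, 35.5% passed the test in either direction. With any 1 library left out, 0 genes of the whole table passed (limma, smallest adjusted p = 0.0633 to 0.213), with 13 to 52 of the 100 at an unadjusted p under 0.05. The log2 fold changes of the 28 were then 0.641 to 1.36 times those from all 4 libraries.

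Among the genes higher in the long-fruited line, Csa4G000580 differed most. It measured 1688 and 2692 RPM in the 408 libraries and 548 and 231 RPM in the 409 libraries. The line means were 2190 ± 710 and 389 ± 224 RPM (SD, n = 2 per line), at a log2 fold change of 2.58 ± 0.49 (SE; limma, adjusted p = 0.0318). Both 408 libraries lay above both 409 libraries, and the replicate 2 libraries were 11.7-fold apart.

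Csa3G026150 and Csa4G295440 behaved alike in their order. Csa3G026150 measured 1502 and 2190 RPM in line 408, and 537 and 219 RPM in line 409, at a log2 fold change of 2.40 (limma, adjusted p = 0.0332). Csa4G295440 measured 2330 and 3190 RPM in line 408, and 802 and 402 RPM in line 409, at 2.26 (limma, adjusted p = 0.0317). In both, 408 replicate 2 was the highest library and 409 replicate 2 the lowest.

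Csa2G247040 had another pattern within line 409. It measured 1021 and 1842 RPM in line 408, and 325 and 330 RPM in line 409, where the replicates nearly coincided. Its log2 fold change was 2.06 ± 0.33 (SE; limma, adjusted p = 0.0317), and its mean of 1431 ± 581 RPM in line 408 was 4.37 times that of line 409 (SD, n = 2 per line).

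Among the genes higher in the short-fruited line, Csa3G101810 differed most. It measured 264 and 124 RPM in the 408 libraries and 836 and 1155 RPM in the 409 libraries. The line means were 194 ± 98.8 and 995 ± 226 RPM (SD, n = 2 per line), at a log2 fold change of -2.43 ± 0.40 (SE; limma, adjusted p = 0.0317). The lowest 409 library, at 836 RPM, lay above the highest 408 library, at 264 RPM.

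Csa2G009440 measured 347 and 114 RPM in line 408, and 694 and 1257 RPM in line 409. Its log2 fold change was -2.22 ± 0.59 (SE; limma, adjusted p = 0.0485), close to the threshold, and it was -1.43 without 408 replicate 2. Csa4G303110 had 349 and 167 RPM in line 408, and 953 and 1318 RPM in line 409, at -2.21 (limma, adjusted p = 0.0317). Csa4G664500 measured 514 and 204 RPM in line 408, and 1178 and 1461 RPM in line 409, at -2.01 (limma, adjusted p = 0.0386). In all 3 genes 408 replicate 2 was lowest and 409 replicate 2 highest.

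Of the 6 genes that weighed most in 409 replicate 2, Csa1G023070 and Csa3G874380 passed the test. Csa1G023070 measured 746 and 392 RPM in line 408, and 1519 and 2107 RPM in line 409, at a log2 fold change of -1.72 (limma, adjusted p = 0.0376). Csa3G874380 measured 599 and 263 RPM in line 408, and 1194 and 1786 RPM in line 409, at -1.88 (limma, adjusted p = 0.0419).

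Ranks were set by the mean RPM of each line among all listed genes. In 53 genes the rank was better in line 409, and in 44 it was better in line 408. It was equal in Csa5G198770, Csa3G154390 and Csa1G000580. The rank differed at least 2-fold between the lines for 62 genes. In single libraries, it also did so between replicates for 37 genes in line 408 and for 20 in line 409. The 62 uses line means, so it is not directly comparable with the 37 and 20. The choice by mean lets in genes high in a single line, so large rank changes follow in part from that choice. No share over all genes is given for these counts, so they are a description. The 3 largest climbs from line 408 to line 409 were those of Csa3G101810, from 961 to 36, Csa4G303110, from 594 to 31, and Csa2G009440, from 718 to 39. The 3 largest drops were those of Csa4G000580, from 8 to 308, Csa3G026150, from 11 to 323, and Csa2G247040, from 15 to 416.

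Among the genes described here, some with top ranks in line 408 were far down in line 409, which the choice by mean allows. Csa4G295440 was at rank 6 in line 408 and at rank 121 in line 409. Conversely, Csa2G023940 stood at rank 13 in line 409 and 160 in line 408. By the ratio of worst to best rank over the libraries, Csa4G000580 had the widest span, from 7 to 778. By the difference in rank it was Csa6G501990, at rank 2433 in 408 replicate 2, where it measured 101.2 RPM, and at rank 29 in 409 replicate 2, with 1258 RPM.

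**Figure D4:**
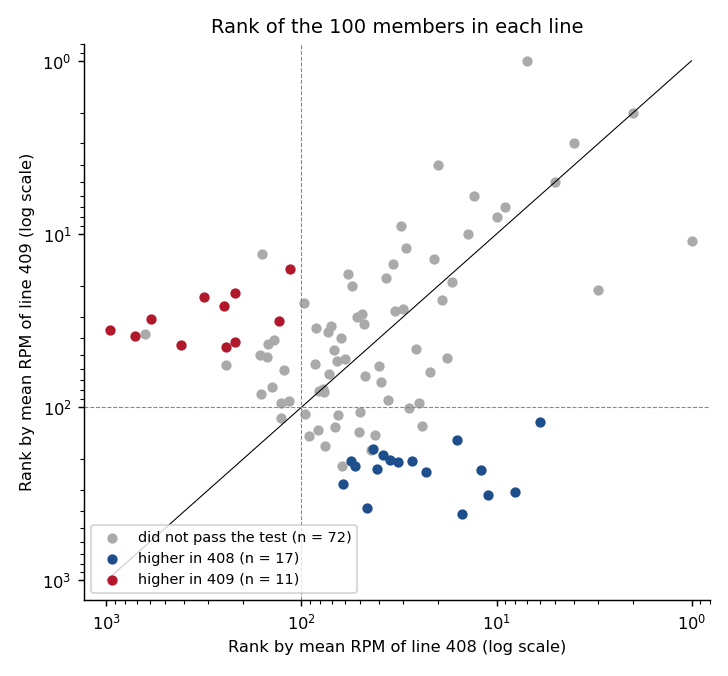
Rank by the mean RPM of line 408 (horizontal axis) against rank by the mean of line 409 (vertical axis), both log scales with rank 1 at the right and top, 1 point per gene, and dashed lines at rank 100. The 17 genes higher in 408 (blue) and the 11 higher in 409 (red) that passed the test lie on opposite sides of the diagonal of equal rank, and the other 72 (grey) lie on both.

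Turnover of the top 100 was smaller within lines than between them. The 100 most abundant genes of the 408 replicates had 80 in common, and those of the 409 replicates 73. Between lines the replicate 1 libraries shared 62, the replicate 2 libraries 34, and the other 2 pairs 46 and 49. Of the genes described here, 34 were in the top 100 of all 4 libraries, and each of the 100 was in the top 100 of at least 1.

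In 84 of the 100 genes the lines did not overlap, against 76.8% of all genes tested. The 409 libraries were above in 47 genes and the 408 libraries in 37, against 34.9% and 41.8% of all genes tested. The next 400 genes by mean were close to the abundant genes, at 86.8% without overlap, 49.0% with 409 above and 37.8% with 408 above. The highest library was 409 replicate 2 in 43 genes and 408 replicate 2 in 35. In 40 genes the level rose from 408 replicate 2 through 408 replicate 1 and 409 replicate 1 to 409 replicate 2, against 19.2% of all genes tested. In 29 genes it fell in that order, against 29.4%. Among the next 400 genes by mean, 36.0% were in the rising order, so the excess over all genes tested was also present there.

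Since these 2 sets were defined by the order of the libraries, their summed shares follow that order by construction and are given for their size. The 40 genes in the rising order, all 6 heavy genes among them, took 4.69% and 3.23% of the reads in line 408, and 6.57% and 8.76% in line 409. The 29 genes in the falling order took 3.11% and 4.09% in line 408, and 1.86% and 1.39% in line 409. The other 31 genes took 2.58% to 2.94%. The labels name no batch that would set replicate 1 apart from replicate 2.

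**Figure D5:**
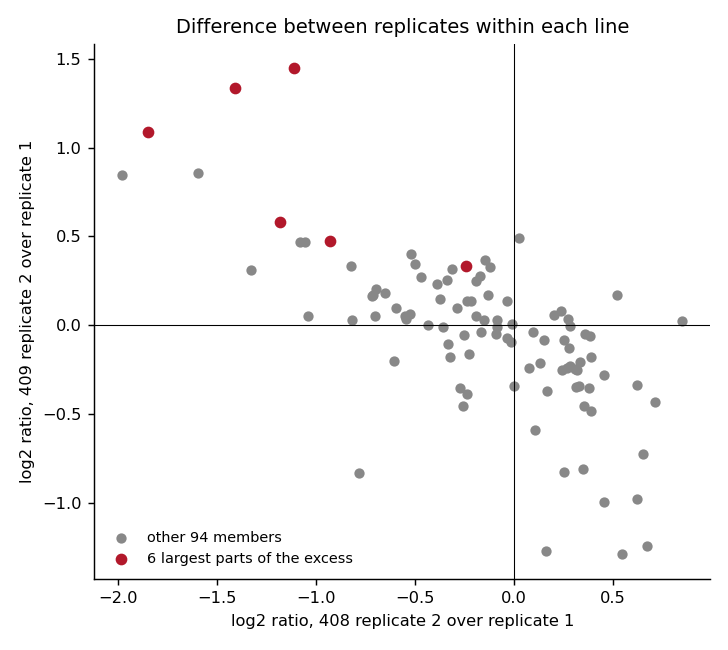
Log2 ratio of 409 replicate 2 over 409 replicate 1 (vertical axis) against the log2 ratio of 408 replicate 2 over 408 replicate 1 (horizontal axis), both of RPM + 1, for the 100 genes, with the 6 heavy genes in red. The upper left holds 44 genes and the lower right 35, against 6 in the upper right and 15 in the lower left.

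From replicate 1 to replicate 2, 44 genes were lower in line 408 and higher in line 409, and 35 were higher in line 408 and lower in line 409. The shares over all genes tested were 27.0% and 39.4%. Another 6 were higher in replicate 2 of both lines, and 15 were lower. The replicates thus differed in opposite ways in 79 of the 100 genes, against 66.4% of all genes tested and 78.2% of the next 400 by mean. The 2 ratios share no library, and across the 100 genes they had a Pearson r of -0.70. It was -0.56 across the next 400 by mean and -0.48 across all genes tested. Genes are not independent replicates, and RPM within a library sum to a fixed total, so these coefficients describe the libraries only.

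In 8 genes both replicate 1 libraries lay above both replicate 2 libraries and in 1 gene, Csa4G017140, below them, against 8.66% of all genes tested for both directions, so this share was near the background. In most of the 9 the gap was small, as at 684 and 668 RPM below 700 and 703 RPM in Csa7G450710. A wider one, singled out after its values were seen, was that of Csa5G383850, at 1042 RPM in 408 replicate 1 and 1240 RPM in 409 replicate 1 against 605 and 697 RPM in the replicate 2 libraries.

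Some abundant genes hardly varied. In 7 of the 100 the highest library was less than 1.2 times the lowest, while in 53 it was at least 2 times and in 15 at least 5 times. These counts describe the 100 genes only, since no share over all genes is given. Csa7G450710 was the steadiest of the 100, with a highest library 1.05 times the lowest. Csa2G012710 measured 716 and 676 RPM in line 408 and 682 and 677 RPM in line 409, and Csa1G003540 760 and 752 RPM against 790 and 739 RPM. At the other extreme, the highest library of Csa6G501990 was 12.4 times the lowest.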

How the data were processed

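Poly(A)-selected RNA of pooled young fruits was made into strand-preserving libraries, per the labels' protocols, and the submitters' processing notes name TopHat as the aligner. The sources used here give neither its version nor the genome build, the counting tool and its use of strand, so overlapping genes and near-identical copies may share reads. The authors deposited RPM with 1 decimal, and each column sums to 1000000 within rounding. All 4 columns were matched to samples by name. Depth was estimated from the steps of values up to 30 RPM. Because 1 read is worth less than the rounding step, the deposited values give read numbers only approximately, and no test on counts was made.

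Genes reaching 1 RPM in 2 or more libraries were fitted with limma 3.58.1 in R 4.3.3 on log2(RPM + 1), with a mean-variance trend and no covariates, and p-values were adjusted by Benjamini-Hochberg over all 17391 genes at a threshold of 0.05. Fold changes on this scale understate those of low genes. With 2 samples per line, p-values rest on limma's pooled spread. The fit was tested on simulated data with noise drawn independently for each gene and library. That test does not cover replicates that differ in a way shared by many genes. Shares and ranks were computed with Python 3.11.15 and pandas 2.3.3. Genes named are the 10 highest by mean, the leader of each library, the 6 largest and 3 smallest parts of the excess, the 4 largest differences each way among non-overlapping genes past the threshold, the 3 largest rank changes each way and those at the edge of the list. Genes singled out beyond this are the steadiest, the set-apart and the neighbouring ones. The genes, lists and rules were chosen with earlier results of these data known. Lists defined by product names were not tested, since the IDs carry none. The closing section gives the alternatives tried.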

Additional observations from a re-analysis of the deposited data

How the results depend on the processing

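The count of 28 abundant genes that differ was 26 to 41 with a pseudocount of 0.1 or 0.5, with a filter of 5 RPM, with either rescaling and with no trend, and that of all genes was 4271 to 5427 against 4738. With no trend 41 of 100 abundant genes stood against 24.7% of all genes, and under the other settings just named 26 to 33 of 100 against 24.6% to 31.2%. Without a filter both were 0 (limma, smallest adjusted p = 0.0674, with 44 and 8340 genes at an unadjusted p under 0.05), for which the cause was not tested. Both went to 0 to 0 when 1 library was left out, where the single library of a line is taken to vary as the other line does. With the replicate number as a block the counts were 3 of 100 and 1356, or 7.8% of genes tested. No label ties the number to a batch. Deviations of same-numbered libraries correlated at -0.48 across all genes tested. This is the coefficient given above for the within-line ratios, and it describes the libraries only. Over all genes the median log2 fold change moved from 0.06 to -0.01 after median-of-ratios and -0.07 after quantile rescaling, and that of the abundant genes from -0.18 to -0.25 and -0.03. None of the 23 named genes reversed, and in 276 refits their calls were lost in 60 and gained in 4 (of Csa6G448110, Csa5G613470 and Csa2G139820), at adjusted p values of 0.0225 to 0.986. The difference in share between the lines, 1.53 points, was 0.783 to 2.27 when 1 library was left out. It was -0.69 when the genes were chosen by line 408 alone and 4.62 by line 409 alone, since such a choice favours the chosen line, and 0.0248 without the 6 heavy genes. The excess of 409 replicate 2, 2.01 points, was 1.78 to 2.27 when another library was left out. It was 1.08 without Csa6G518000 and 0.0401 without the 6 genes. With the genes chosen by line 408 it was -0.0197, and by line 409 it was 4.68. Levels after median-of-ratios rescaling, set against the unscaled totals, gave 2.92. That value is not a share, since 1 factor for a whole library leaves its shares unchanged. The choice by line 409 and the removal of the 6 genes were added after the data were seen. Lists of 50 or 200 genes, or by geometric mean or the replicate 1 libraries, stayed within 1 SD between replicates. The planned count tests were not run. Depth limits no level reported here.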
